A study of Mus musculus with 8 samples.

Results

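The cells described here are T cells that carried much surface CXCR6, divided by how much surface CD69 they carried as well. They were chosen by measured antibody counts, in 3 libraries separately. A barcode was kept with at least 500 detected genes and at most 10% of its UMIs (unique molecular identifiers, counts of captured molecules) from mitochondrial genes. It was called CXCR6-high where its CXCR6 antibody count divided by its RNA UMIs was above the median of its library, and CXCR6-high cells were then split at the median of the same ratio for CD69. This gave 5299 CD69-high and 5301 CD69-low cells, together the 10600 CXCR6-high cells among 21203 kept barcodes of the 3 libraries (21551 kept barcodes in all 4 libraries of the series). Brain at day 14 gave 2577 CD69-high and 2578 CD69-low cells, spinal cord at day 14 gave 2317 and 2318, and spinal cord at day 50 gave 405 and 405.

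All cells came from Foxp3-Cre-YFP mice in which experimental autoimmune encephalomyelitis (EAE), an induced autoimmune disease of the central nervous system, had been induced 14 or 50 days earlier. The brain, freed of its meninges, and the spinal cord were digested, and conventional CD4 T cells were sorted as CD44+, Foxp3-YFP-, TCRβ+ and CD11b-, so neither group held unimmunized or naive cells by design. CITE-seq, in which antibodies carrying DNA tags are counted beside RNA in each droplet, read 3 surface proteins, which the labels give as CD69, P2RX7 and CXCR6. In the feature tables the antibody with the identifier P2X7R carries the name CD3 and the one with the identifier CXCR6 the name CD16. Antibodies were taken by identifier, and every group name and antibody value below rests on that choice. In kept cells the antibody with the identifier P2X7R had medians of 2.13, 4.17 and 3.66 per 1000 RNA UMIs in cells with a P2rx7 UMI, against 1.18, 1.44 and 1.64 in cells without, while cells with and without a Cd3e UMI had 1.18, 1.76 and 1.84 against 1.51, 1.97 and 1.72 (day 14 brain, then day 14 and day 50 spinal cord). The antibody with the identifier CXCR6 had medians of 4.76, 4.83 and 4.27 in cells with a Cxcr6 UMI and 1.90, 2.16 and 1.39 in cells without, and Fcgr3, which encodes CD16, had a UMI in 19, 30 and 4 cells. Each tissue and day is 1 library, and the number of mice in it is not stated. The p-values and standard errors (SE) below come from 3 libraries, each of which supplied both groups. The spread of each gene was estimated with information shared over all genes. A small p or SE therefore does not show that the 3 libraries went the same way. Csf2, Il17a, Capg and Ly6c2 below were called although their libraries went opposite ways.

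CD69 is a C-type lectin that T cells put on the surface soon after receptor stimulation and that many tissue-resident memory T cells keep for long periods. It binds the sphingosine 1-phosphate receptor S1PR1 and takes it from the surface, so that the cell no longer follows the gradient that leads out of tissue into lymph and blood; the transcription factor KLF2 drives S1pr1 transcription. CXCR6, the receptor for CXCL16, marks effector and resident T cells in many organs, and P2X7 is an ion channel opened by extracellular ATP.

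The values that chose the cells are a description and were not tested. The median cell had 11 CD69 antibody UMIs among CD69-high and 3 among CD69-low cells in brain at day 14, 25 against 6 in spinal cord at day 14, and 18 against 2 in spinal cord at day 50. The dividing value was 1.37, 2.38 and 2.20 CD69 antibody UMIs per 1000 RNA UMIs in these libraries in the same order. The 50 cells just above it reached 1.41, 2.45 and 2.77, and the 50 just below it went down to 1.34, 2.32 and 1.73, so the split cuts a continuous range. Cells within 10% of the dividing value numbered 395, 380 and 38. The CXCR6 dividing value was 3.33, 4.31 and 2.88 per 1000 RNA UMIs, with the nearest 50 cells reaching 3.38, 4.35 and 3.16 above it and 3.29, 4.27 and 2.64 below it. CXCR6 antibody itself was near equal in both groups, with medians of 30 in CD69-high and 29 in CD69-low cells in brain at day 14, 39 and 36 in day 14 spinal cord, and 23 and 23 in day 50 spinal cord.

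RNA UMIs stand in the denominator of the rule, and the groups differed in them in 1 library more than in the others. The median cell held 3815 RNA UMIs among CD69-high and 4394.5 among CD69-low cells of brain at day 14, 4785 and 4689 in day 14 spinal cord, and 3495 and 3732 in day 50 spinal cord. The 6 sums held between 1510765 and 12264270 RNA UMIs. Cycling cells, those with UMIs of 4 or more proliferation genes, made up 28.6% of CD69-high and 31.2% of CD69-low cells in brain at day 14, 37.1% and 33.05% in day 14 spinal cord, and 22.7% and 21.7% in day 50 spinal cord. The median mitochondrial share lay between 2.08% and 2.96% in all 6 groups of cells. The libraries shared 33 (brain and spinal cord, day 14), 2 (day 14 brain and day 50 spinal cord) and 4 (spinal cord, both days) cell barcodes, each counted in its own library.

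Both groups held the transcripts of the labelled cell type. The 9 T cell identity genes summed to 7812 to 7956 CPM (UMIs of a gene per 1000000 UMIs of the sum) in CD69-high and 7625 to 7770 CPM in CD69-low cells, and 1 of 9, Cd3g, was higher in CD69-high cells. Foxp3 and Ncr1 were at 0 UMIs in all 6 sums. Of 2 CD8 T cell markers, Cd8a had 1 UMI in the 6 sums together. Cd8b1 had 56 UMIs in CD69-high and 57 in CD69-low cells of brain at day 14. It had 71 and 79 in day 14 spinal cord, and 5 and 6 in day 50 spinal cord. In the same library order, 4 NK cell markers summed to 4.01, 7.65 and 11.3 CPM in CD69-high cells. In CD69-low cells they summed to 4.81, 6.48 and 4.43 CPM. Summed markers of other cells were low, with 9.56 to 31.1 CPM in CD69-high and 10.4 to 23.5 CPM in CD69-low cells for 11 myeloid and microglial genes, and at most 0.66 CPM for neutrophil genes. Of 9 glia, neuron and vessel genes the sum was higher, at 70.8 to 139.7 CPM in CD69-high and 71.5 to 142.6 CPM in CD69-low cells, with Mbp not called and Pecam1 lower (-0.23 ± 0.07). B cell markers summed to 19.8 to 84.1 CPM in CD69-high and 26.5 to 68.4 CPM in CD69-low cells, with Ighm lower (log2 fold change -0.46 ± 0.10 SE) and Igkc higher (0.47 ± 0.15). The sum of 5 γδ T cell markers was above its CD69-low level in each library. It was at 14.2 against 8.40 CPM, 9.15 against 6.31 CPM and 31.8 against 15.2 CPM, in the library order used above. Of the 2 markers tested, Tcrg-C1 was called higher and Trdc was not called. Trdc had 71 UMIs in CD69-high and 54 in CD69-low cells of day 14 brain. It had 13 and 15 in day 14 spinal cord, and 13 and 13 in day 50 spinal cord. The part of the γδ T cell markers in the results below was not tested.

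**Figure D1:**
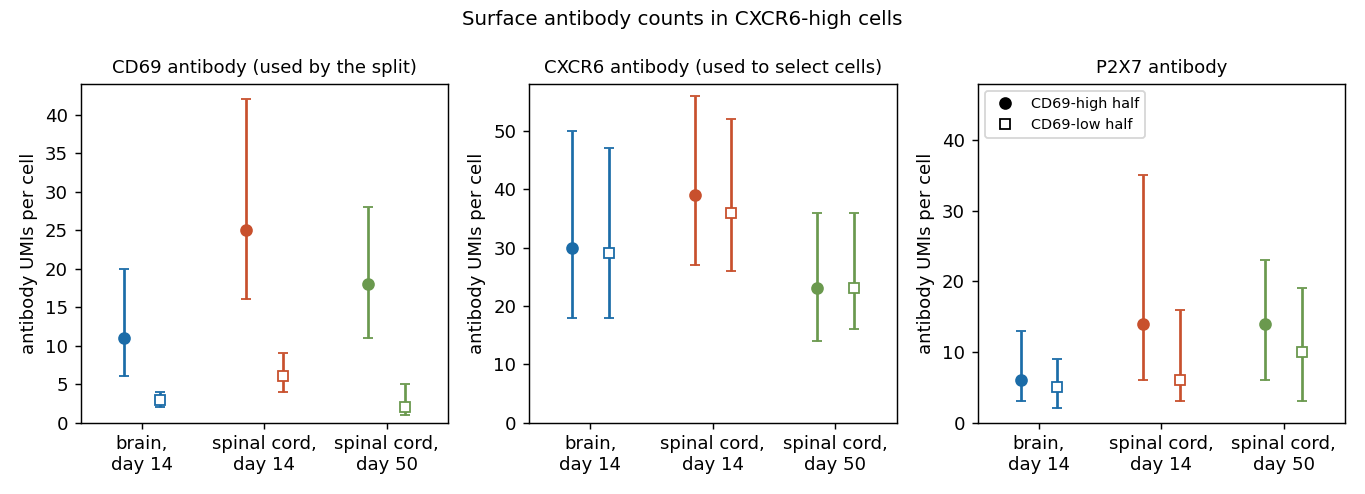
Antibody UMIs per cell (y axis, linear from 0) in CD69-high (filled circles, left of each pair) and CD69-low cells (open squares, right) of the CXCR6-high population in 3 libraries (x axis); points are medians and bars span the first to the last quartile bound of the cells. CD69 differs because it made the split; CXCR6 medians are 30 and 29, 39 and 36, and 23 and 23, while P2X7 medians are 6 and 5, 14 and 6, and 14 and 10.

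The surface protein that the rule did not use, P2X7, was higher among CD69-high cells in every library. In brain at day 14 the median cell carried 1.70 P2X7 antibody UMIs per 1000 RNA UMIs among CD69-high and 1.10 among CD69-low cells, in spinal cord at day 14 it carried 3.10 and 1.37, and in spinal cord at day 50 it carried 3.82 and 2.72. The ratio of medians was 1.55, 2.27 and 1.41, a mean log2 ratio of 0.77 ± 0.37 (SD, n = 3 libraries). With 3 pairs the smallest p an exact two-sided sign-flip test can reach is 0.25, so none is given. P2X7 and CD69 antibody counts share the RNA denominator and the same staining. In an alternative, cells were ranked by RNA UMIs into 20 bins of equal cell number. With both the CXCR6 and the CD69 median taken within such bins, the mean log2 ratio was 0.79. When cells were instead ranked by the CD69 share of the 3 antibodies together, the mean log2 ratio was 0.08 ± 0.14 (SD, n = 3), which is within its spread over libraries. That share has the P2X7 and CXCR6 counts in its denominator, so the ranking by antibody share lowers both among CD69-high cells by construction (CXCR6 medians of 24.5 against 36, 33 against 41 and 20 against 28), and it is no independent check of P2X7.

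Cd69 mRNA (chromosome 6, 129267324 to 129275375, RefSeq GRCm38.p6) hardly followed the protein that made the split. Its level was 816, 487 and 357 CPM in CD69-high and 734, 452 and 381 CPM in CD69-low cells of brain at day 14, spinal cord at day 14 and spinal cord at day 50. The ranges of the groups overlapped, and the 2 day 14 libraries lay above and the day 50 library below equality. The fitted log2 fold change was 0.07 ± 0.03 (SE), with an adjusted p of 0.23 in edgeR's quasi-likelihood test. Cxcr6 mRNA was at 502, 767 and 432 CPM in CD69-high and 477, 720 and 416 CPM in CD69-low cells (log2 fold change 0.05 ± 0.03, adjusted p = 0.41). P2rx7, the transcript of the third protein, was at 37.2, 65.4 and 58.9 CPM in CD69-high and 27.3, 45.6 and 56.4 CPM in CD69-low cells. It rose by 0.42 ± 0.07 on the log2 scale (adjusted p = 0.00015 in edgeR), with the day 50 library near equality. Under the ranking by antibody share its log2 fold change was 0.03. That share has the P2X7 count in its denominator, and cells with a P2rx7 UMI had more P2X7 antibody. The ranking is therefore no independent check of P2rx7 mRNA.

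**Figure D2:**
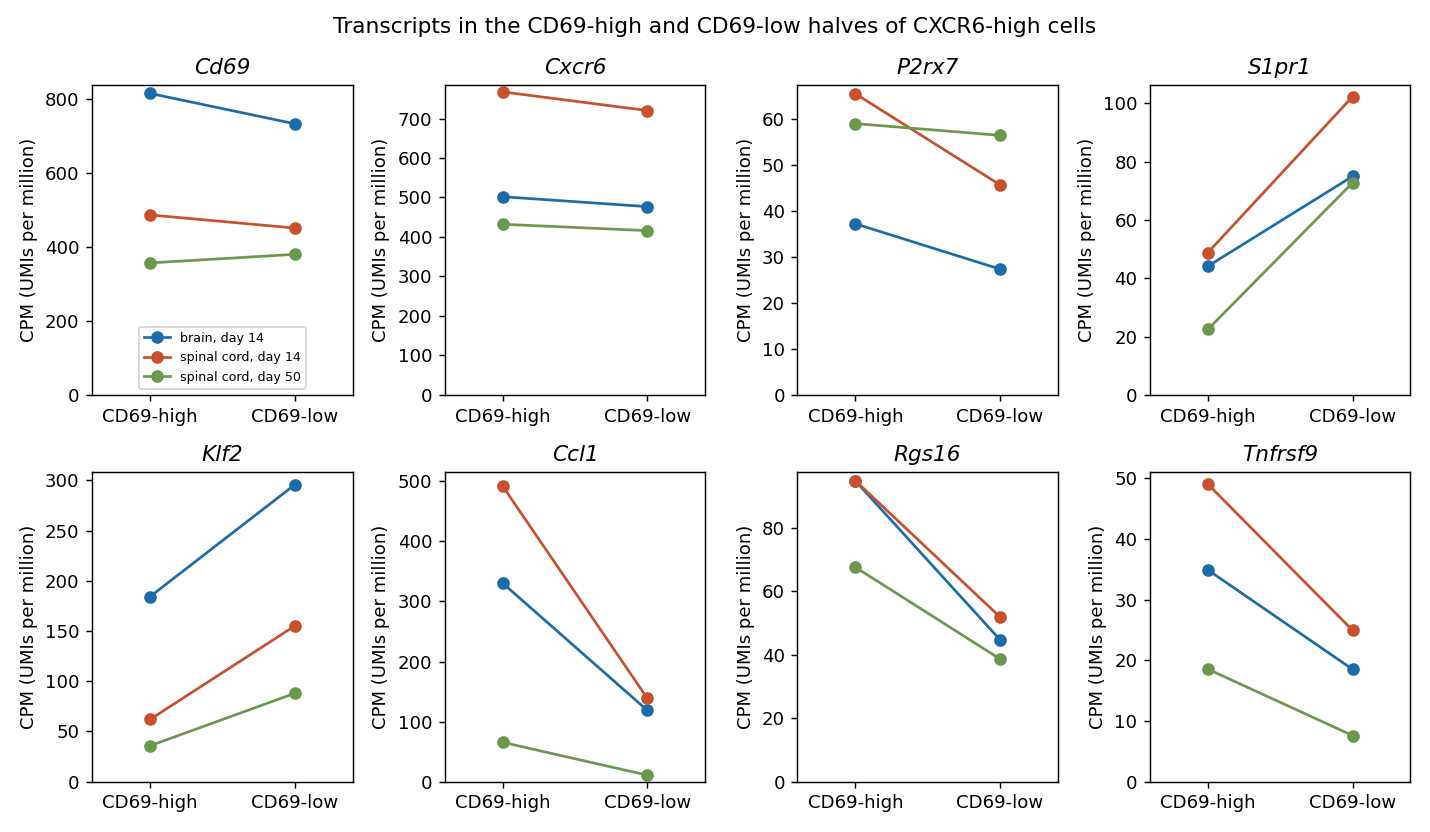
Level of 8 transcripts in CPM (y axis, linear from 0) in CD69-high (left) and CD69-low (right) cells of the CXCR6-high population; each line is 1 library and each point 1 sum over cells. Cd69 and Cxcr6 lines are nearly flat, S1pr1 and Klf2 are lower in CD69-high cells in all 3 libraries, and Ccl1, Rgs16 and Tnfrsf9 are higher in all 3.

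Over the whole transcriptome, 604 of 8231 genes tested (7.34%) differed between CD69-high and CD69-low cells at an adjusted p under 0.05. Of these, 296 were higher (3.6%) and 308 lower (3.74%) in CD69-high cells, and with library sums in place of TMM scaling the split was 373 higher and 221 lower. The difference had the same direction in all 3 libraries for 458 of the 604 (5.56% of genes tested). Most differences were small, since 57 called genes were at least 1.5-fold higher (0.693%) and 23 at least 1.5-fold lower (0.279%). DESeq2, run on the same sums, called 42 higher (0.51%) and 52 lower (0.632%), and of 97 named genes called by edgeR it called 38 in the same direction. Among the genes below that edgeR called, DESeq2 did not call P2rx7, S1pr4, Capg, Slamf6, Lef1, Tcf7, Ifitm1, Tnf, Csf2, Il2, Ifng, Rel, Cd48, Pdcd1, Ctla4, Rgs1, Litaf, Il1r1, Il17a, Ly6c2, Il18r1, Isg15, Ifit3, Irf1, Fasl, Ube2c, Birc5, Pgam1, Ndufa4, Il1r2 and Xcl1, and gave no adjusted p for Ccr8 and Klf9. Without brain at day 14 edgeR called 98 higher and 105 lower, without spinal cord at day 14 it called 77 and 76, and without spinal cord at day 50 it called 412 and 503.

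Among genes named at 50 CPM or more, the largest fall was in 2 egress genes. S1pr1 (chromosome 3, 115710433 to 115715055), the receptor for leaving tissue, was at 44.2, 48.8 and 22.5 CPM in CD69-high cells, against 75.01, 102 and 72.8 CPM in CD69-low cells. The 3 CD69-high values all lay below the 3 CD69-low values. Its log2 fold change was -0.998 ± 0.072 (SE; adjusted p = 3e-12), and -0.73 under the ranking by antibody share. Klf2 was at 184, 62.0 and 35.7 CPM in CD69-high cells, against 296, 155 and 88.0 CPM in CD69-low cells. It was lower in each library, though brain at day 14 had more of it in CD69-high cells than either spinal cord library had in CD69-low cells. The log2 fold change was -0.98 ± 0.07 (adjusted p = 3.1e-12). Klf3, a related zinc finger factor, followed at -0.80 ± 0.11, with 14.2, 9.98 and 13.9 CPM in CD69-high and 21.9, 19.7 and 20.3 CPM in CD69-low cells. S1pr4, another sphingosine 1-phosphate receptor, fell by 0.35 ± 0.06 on the log2 scale.

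Of 12 egress and lymph node homing genes, 8 were tested; 5 fell (S1pr1, Klf2, Klf3, S1pr4 and Gpr183, a receptor for oxysterols that guides T cells within lymphoid tissue) and 0 rose, against 3.74% lower over all genes. The median log2 fold change of the 8 was -0.28, against 0.001 over all genes tested. Foxo1, Itgb2 and Itgal were not called. The gene lists here and below were chosen with earlier results of these data known, and some genes stand in several lists. Counts of their members are therefore a description, and no list was tested as a set.

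Not all KLF genes fell, since Klf6 was not called and Klf9 was called higher (0.67 ± 0.20). The log2 ratios of Klf9 were 0.77 in day 14 brain, 1.14 in day 14 and -0.83 in day 50 spinal cord. KLF factors read the core letters CACCC, given in capitals on either strand (GGGTG on the strand printed). The promoter windows printed are those of Klf2 and Klf3, which both fell. They are RefSeq windows on GRCm38.p6, from 250 bases before to 50 after the start, and all sequences run 5′ to 3′ in the direction of the gene.
Klf2 promoter window, chr8:72318812-72319111, + strand: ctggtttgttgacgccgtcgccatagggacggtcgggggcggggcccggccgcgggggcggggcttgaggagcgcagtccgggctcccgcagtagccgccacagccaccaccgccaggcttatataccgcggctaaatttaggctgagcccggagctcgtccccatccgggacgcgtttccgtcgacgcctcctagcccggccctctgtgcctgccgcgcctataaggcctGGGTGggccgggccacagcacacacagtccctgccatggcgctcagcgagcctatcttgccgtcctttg
Klf3 promoter window, chr5:64803271-64803570, + strand: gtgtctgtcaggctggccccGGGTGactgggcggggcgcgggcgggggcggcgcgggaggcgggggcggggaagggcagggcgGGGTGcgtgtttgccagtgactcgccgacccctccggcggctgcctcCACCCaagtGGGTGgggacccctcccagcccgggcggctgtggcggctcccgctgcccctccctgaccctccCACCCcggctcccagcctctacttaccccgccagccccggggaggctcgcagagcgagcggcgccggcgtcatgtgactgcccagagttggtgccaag
The Klf2 window held the core 1 time and the Klf3 window 5 times, and 57.5% of 32851 windows held it at least 1 time, so its presence sets neither gene apart. The match is a description of letters and not of bound sites.

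The difference in S1pr1 and Klf2 was spread over the range of CD69 protein. With CXCR6-high cells put in 4 quartiles of the CD69 ratio, S1pr1 stepped down through 82.3, 67.2, 53.0 and 34.9 CPM from the lowest to the highest quartile in brain at day 14. In spinal cord it stepped down through 113, 90.7, 55.7 and 41.7 CPM at day 14 and through 105, 40.7, 29.8 and 14.9 CPM at day 50, the last from 83, 32, 23 and 11 UMIs. Klf2 fell at every step in the 3 libraries as well, ending at 137, 42.4 and 25.7 CPM in the highest quartile. Cd69 mRNA moved little over the same quartiles, through 724, 745, 775 and 860 CPM in brain and 441, 464, 492 and 483 CPM in spinal cord at day 14. At day 50 it was 373, 388, 424 and 288 CPM, lowest where CD69 protein was highest.

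**Figure D3:**
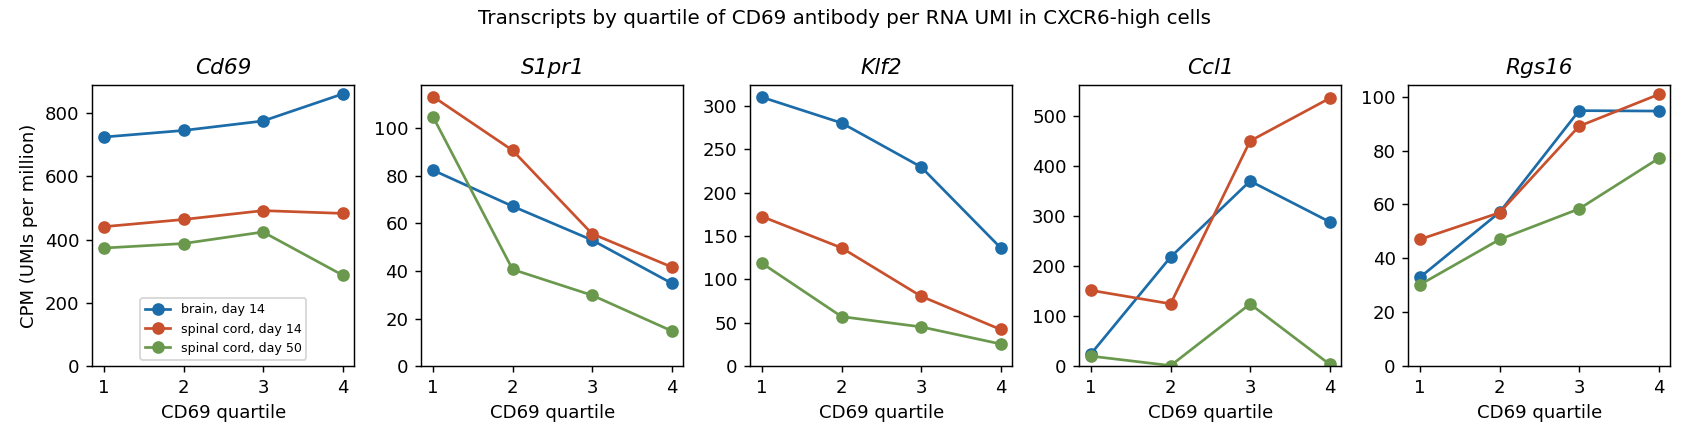
CPM of 5 transcripts (y axes, linear from 0) in CXCR6-high cells by quartile of CD69 antibody per RNA UMI (x axis, 1 lowest to 4 highest), 1 line per library. S1pr1 and Klf2 fall at each step in all 3 libraries, Rgs16 climbs toward the upper quartiles, Cd69 stays within 724 to 860, 441 to 492 and 288 to 424 CPM, and Ccl1 is uneven.

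Most genes of migration fell. Of 19 tested, 16 were lower in CD69-high cells, against 3.74% over all genes, with a median log2 fold change of -0.24. The actin-capping gene Capg was called higher (0.26 in edgeR, 0.11 in DESeq2), but its log2 ratio in spinal cord at day 50 was -0.34, and the call was lost without either day 14 library. Itgb1, the integrin β1 chain that with Itga4 forms the VLA-4 receptor, was at 267, 470 and 273 CPM in CD69-high and 359, 638 and 369 CPM in CD69-low cells (log2 fold change -0.46 ± 0.03, adjusted p = 3.1e-12). Each library was lower by a similar amount, with log2 ratios of -0.43, -0.44 and -0.43. Crip1, a small LIM-domain protein, was at 1395, 1502 and 1176 CPM in CD69-high and 1830, 1900 and 1556 CPM in CD69-low cells (-0.40 ± 0.02). S100a10, an annexin partner, fell by 0.31 ± 0.02 on the log2 scale. Ccr2, a chemokine receptor of cells entering inflamed tissue, was at 184, 227 and 108 CPM in CD69-high and 236, 292 and 163 CPM in CD69-low cells (-0.41 ± 0.04), lower in each library. Flna, the actin cross-linker filamin A, fell by 0.48 ± 0.06, and Gna15, a G protein α subunit, by 0.42 ± 0.05. The uncharacterised 2810001G20Rik fell by 0.45 ± 0.06. Of 6 chemokine receptor genes tested, Ccr2 and Cxcr3 (-0.29 ± 0.05) fell and Ccr8, a receptor for CCL1, rose (0.54 ± 0.17, adjusted p = 0.040, at 6.101, 9.82 and 13.9 CPM in CD69-high and 3.34, 7.73 and 6.96 CPM in CD69-low cells). The Ccr8 call was lost with depth bins (adjusted p = 0.052), antibody share (0.174), thinned cells (0.578), without cycling barcodes (0.292) and without the 2 richest cells (0.0502).

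Some genes of less differentiated T cells were also lower. Of 9 Tfh and stem-like genes tested, 4 fell (3.74% over all genes), Slamf6 (-0.60 ± 0.11), Lef1 (-0.41 ± 0.05), Tcf7 (-0.37 ± 0.06) and Il7r (-0.28 ± 0.04), and Bcl6, the Tfh factor, rose, while the other 4 were not called. The list medians by library were -0.12, -0.29 and -0.04, the last in spinal cord at day 50. Tcf7, which encodes TCF-1, was at 71.9, 67.2 and 86.7 CPM in CD69-high and 89.8, 90.3 and 89.3 CPM in CD69-low cells, so the day 50 library was near equality. Lef1 was at 57.6 and 53.8 CPM there, slightly to the other side. Ifitm1, an interferon-induced membrane protein gene, had a log2 fold change of -0.73 ± 0.08, but in spinal cord at day 50 it rested on 2 UMIs in CD69-high and 46 in CD69-low cells, of which 1 cell supplied 95.8% of the total. Without the 2 richest cells per gene the value was -0.67.

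The largest rise was in Ccl1 (chromosome 11, 82176666 to 82179812), a chemokine made by activated T cells whose receptor is CCR8. It was at 330, 492 and 65.5 CPM in CD69-high cells, against 119, 139 and 10.8 CPM in CD69-low cells, from 99 and 17 UMIs in the day 50 library. Each library was higher in CD69-high cells. The log2 fold change was 1.65 ± 0.06 (adjusted p = 2.4e-21). The richest cell held 14.5%, 4.13% and 79.3% of the Ccl1 UMIs of the 3 libraries, so the day 50 ratio rests on 1 cell; without the 2 richest cells in each group the fit gave 1.93. Across quartiles Ccl1 was uneven, at 16, 1, 96 and 3 UMIs in spinal cord at day 50.

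Secreted and membrane-bound effector molecules rose as a group. Of 17 tested, 13 were higher and 0 lower, against 3.6% higher over all genes, with a median log2 fold change of 0.44. The medians by library were 0.35, 0.98 and -0.004, the last in spinal cord at day 50, where the group as a whole was level. Lta, lymphotoxin α, was at 54.4, 106 and 21.2 CPM in CD69-high and 30.1, 53.8 and 13.3 CPM in CD69-low cells (0.89 ± 0.07, adjusted p = 4.2e-12). Tnfsf11, which encodes RANKL, was at 82.0, 111 and 68.2 CPM in CD69-high and 43.3, 52.9 and 68.4 CPM in CD69-low cells (0.89 ± 0.08), higher at day 14 and equal in both groups at day 50. Tnf rose by 0.40 ± 0.07 on the log2 scale, with 86.7 CPM in CD69-high and 101 CPM in CD69-low cells at day 50. Csf2, which encodes the encephalitogenic cytokine GM-CSF, was at 67.0, 74.0 and 10.6 CPM in CD69-high and 30.7, 26.7 and 26.0 CPM in CD69-low cells. It was higher in both day 14 libraries and lower at day 50 (16 and 41 UMIs), and its fitted log2 fold change of 1.18 ± 0.11 follows the 2 deeper libraries, against 0.50 in DESeq2, where it was not called. Il2 had a log2 fold change of 1.46 ± 0.22, with 1 cell holding 53.3% of its UMIs in spinal cord at day 14, and 1.13 without the 2 richest cells, and 0.09, not called, without cycling barcodes. Ifng, the Th1 cytokine, moved least of the called members, at 441, 378 and 467 CPM in CD69-high and 391, 334 and 419 CPM in CD69-low cells (0.15 ± 0.03). Ccl5 was not called (adjusted p = 0.87).

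The Ccl1 and Rgs16 windows are shown as those of the largest rise and of a rise seen in every library without overlap of the groups, with the core letters GGAAA, read by NFAT factors downstream of the T cell receptor, in capitals on either strand (TTTCC on the strand printed).
Ccl1 promoter window, chr11:82179763-82180062, - strand: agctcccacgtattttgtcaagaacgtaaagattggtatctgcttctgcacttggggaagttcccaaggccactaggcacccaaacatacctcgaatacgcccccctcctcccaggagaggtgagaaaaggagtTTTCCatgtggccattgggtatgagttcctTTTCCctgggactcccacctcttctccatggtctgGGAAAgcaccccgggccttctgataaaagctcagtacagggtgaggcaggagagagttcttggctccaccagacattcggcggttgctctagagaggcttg
Rgs16 promoter window, chr1:153740103-153740402, + strand: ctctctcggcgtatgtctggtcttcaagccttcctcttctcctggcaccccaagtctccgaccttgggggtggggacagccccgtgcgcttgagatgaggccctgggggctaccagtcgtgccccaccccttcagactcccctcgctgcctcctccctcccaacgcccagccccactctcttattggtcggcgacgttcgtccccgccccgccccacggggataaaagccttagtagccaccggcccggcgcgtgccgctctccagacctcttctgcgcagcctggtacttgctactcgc
The Ccl1 window held the core 3 times and the Rgs16 window 0 times, and 61.3% of all windows held it. TGANTCA, the AP-1 site, stood in neither and in 7.81% of all windows. No match says only that these letters are not in the window.

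Genes induced by the T cell receptor rose in part. Of 20 tested, 10 were higher and 0 lower, against 3.6% higher over all genes, with a median log2 fold change of 0.31 and medians by library of 0.34, 0.33 and 0.10, the last at day 50. Tnfrsf9, which encodes the costimulatory receptor 4-1BB, was at 34.9, 49.0 and 18.5 CPM in CD69-high and 18.5, 24.9 and 7.60 CPM in CD69-low cells (0.93 ± 0.08, adjusted p = 4.1e-10). Tnfrsf4, which encodes OX40, was at 220, 224 and 137 CPM in CD69-high and 146, 168 and 93.7 CPM in CD69-low cells (0.48 ± 0.05). Egr2, a receptor-induced transcription factor, was at 10.47, 30.5 and 5.96 CPM in CD69-high and 4.24, 16.1 and 3.799 CPM in CD69-low cells (0.99 ± 0.12), from 9 and 6 UMIs at day 50. Nr4a1, another receptor-induced factor, was not called (0.07 ± 0.06, adjusted p = 0.58). Of 21 immediate early and AP-1 genes, 6 rose (3.6% over all genes), led by Ier5l (1.08 ± 0.17), and 1, Zfp36, fell, with a median of 0.07. Under the ranking by antibody share 1 rose and 4 fell, with a median of 0.005. Of 19 NF-kB and feedback genes, 8 rose and 0 fell (3.6% and 3.74% over all genes), with a median of 0.09. Gadd45b (0.34 ± 0.04) and Rel (0.32 ± 0.06) were among those that rose. No gene of 9 heat shock genes was called.

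Among costimulatory molecules, 5 of 13 rose (3.6% over all genes) and 2 fell, Cd48 (-0.22 ± 0.04) and Cd28. Of 13 inhibitory receptor genes, 6 were higher, 0 lower and 7 not called (3.6% higher and 3.74% lower over all genes). Their median log2 fold change was 0.23, with medians by library of 0.32, 0.31 and 0.06, the last at day 50. Lag3, which binds MHC class II, was at 40.0, 72.2 and 16.5 CPM in CD69-high and 21.8, 38.8 and 16.5 CPM in CD69-low cells (0.83 ± 0.08), so the day 50 library did not share the rise. Cd160 was higher in each library, at 53.5, 57.6 and 14.6 CPM in CD69-high and 29.2, 30.7 and 6.33 CPM in CD69-low cells (0.87 ± 0.07). Pdcd1, which encodes PD-1, rose by 0.44 ± 0.09 and Ctla4 by 0.23 ± 0.05 (0.063, not called, under the ranking by antibody share); at day 50 their UMIs were 10 against 16 and 246 against 258.

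Of genes linked to tissue residency, 22 of 28 were tested, 10 rose and 1 fell (3.6% and 3.74% over all genes), with a median log2 fold change of 0.23. Among those that rose, Xcl1, Ccr8, Pdcd1 and Ctla4 were also counted in lists above. Rgs16, a brake on G protein signalling from chemokine receptors, was at 94.7, 94.8 and 67.5 CPM in CD69-high and 44.7, 51.8 and 38.6 CPM in CD69-low cells (0.93 ± 0.06, adjusted p = 3.7e-13), and the ranges did not overlap. Rbpj, the DNA-binding partner of Notch, was at 143, 314 and 117 CPM in CD69-high and 106, 203 and 76.0 CPM in CD69-low cells (0.52 ± 0.05). Litaf rose by 0.36 ± 0.06. Rgs1 rose by a small amount, at 845, 740 and 1556 CPM in CD69-high and 738, 707 and 1373 CPM in CD69-low cells (0.12 ± 0.03, adjusted p = 0.0051), and its value was -0.02 under the ranking by antibody share. Itgb7, the β7 integrin chain, fell by 0.32 ± 0.04, at 276, 285 and 226 CPM in CD69-high and 334, 355 and 279 CPM in CD69-low cells. Several factors classed with residency were not called, namely Itga1 (log2 fold change 0.004 ± 0.11), Bhlhe40 (0.06 ± 0.04), Prdm1 (0.07 ± 0.10), Runx3 (-0.15 ± 0.05, adjusted p = 0.11) and Rgs2 (0.07 ± 0.05). Itgae had 3 to 29 and Zfp683 8 to 25 UMIs in each sum and were below the level tested. Under the ranking by antibody share, 6 residency genes rose and 1 fell (2.79% and 2.38% over all genes), with a median of 0.05.

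Other genes that rose most at 50 CPM or more were Camk2n1, an inhibitor of CaM kinase II, Pmepa1, a TGF-β-induced feedback gene, Ramp1, the CGRP receptor partner, Nrip1, a nuclear receptor corepressor, Krt83 and Mdfic. Camk2n1 was at 57.6, 115 and 94.0 CPM in CD69-high and 34.7, 64.1 and 53.8 CPM in CD69-low cells (0.77 ± 0.06, adjusted p = 1.2e-11). Pmepa1 was at 71.2, 97.7 and 95.3 CPM in CD69-high and 43.8, 57.8 and 69.6 CPM in CD69-low cells (0.68 ± 0.06). Both were higher in each library, and for Pmepa1 the ranges did not overlap. Ramp1 was at 388, 516 and 154 CPM in CD69-high and 259, 345 and 148 CPM in CD69-low cells (0.51 ± 0.04). Nrip1, Krt83 and Mdfic rose by 0.48 ± 0.05, 0.46 ± 0.05 and 0.45 ± 0.06 on the log2 scale. In day 50 spinal cord their log2 ratios were smaller, at 0.24, 0.12 and 0.18. The 95% counting intervals there were -0.18 to 0.67, -0.10 to 0.34 and -0.41 to 0.78.

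Of 11 Th17 genes tested, 6 were higher and 0 lower, against 3.6% higher and 3.74% lower over all genes. Their median was 0.36 (0.11 under the ranking by antibody share). Of 11 Th1 genes, Ifng was higher and Ly6c2, Cxcr3 and Il18r1 were lower (3.6% and 3.74% over all genes), with a median of -0.06. Ly6c2 had log2 ratios of -0.29 in day 14 brain and -0.75 in day 14 spinal cord, but 0.62 in day 50 spinal cord. Those of Il18r1 were -0.14, -0.13 and 0.01 in the same order, and those of Cxcr3 -0.15, -0.38 and -0.26. In spinal cord at day 50 the list medians were -0.08 for Th17 and 0.01 for Th1 genes, and no test compared the lists. Il1r1, the interleukin 1 receptor, was at 40.3, 85.6 and 9.27 CPM in CD69-high and 32.9, 61.4 and 8.86 CPM in CD69-low cells (0.37 ± 0.07). Tmem176a, found in Th17 cells, was at 202, 225 and 137 CPM in CD69-high and 141, 168 and 141 CPM in CD69-low cells (0.39 ± 0.05, and 0.11 under the ranking by antibody share). Il17a was at 296, 154 and 42.4 CPM in CD69-high and 194, 86.2 and 192 CPM in CD69-low cells. It was higher in both day 14 libraries and lower at day 50 (64 and 304 UMIs). Its fitted value was 0.46 ± 0.14 (adjusted p = 0.034), against -0.02 without day 14 brain and -0.05 without day 14 spinal cord, neither of them called.

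Type I interferon genes rose in part, with 9 of 30 higher (3.6% over all genes) and 0 lower and a median of 0.13. The count was 6 with depth bins and 5 under the ranking by antibody share. Bst2, which encodes tetherin, was at 430, 198 and 267 CPM in CD69-high and 322, 170 and 233 CPM in CD69-low cells (0.28 ± 0.04), and Isg15, a ubiquitin-like modifier, was at 147, 54.9 and 96.0 CPM in CD69-high and 115, 47.4 and 80.4 CPM in CD69-low cells (0.27 ± 0.05). Each was higher in every library. With raw antibody counts in the rule Isg15 was at 0.08 and Ifit3 at 0.12, neither called. Isg20 rose by 0.33 ± 0.05 and Ifit3 by 0.44 ± 0.09. Of 20 genes of the interferon-γ response, 0 rose and 1, Irf1, fell (3.6% and 3.74% over all genes).

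Survival genes split, with Bcl2l11 (0.65 ± 0.08), which encodes the pro-apoptotic BIM, and Bcl2 (0.36 ± 0.05), which opposes it, both higher. Bcl2 was at 124, 160 and 183 CPM in CD69-high and 97.3, 118 and 152 CPM in CD69-low cells. In all 4 of 12 survival genes rose and 1, Il7r, fell (3.6% and 3.74% over all genes). Of 14 cytotoxic genes, Fasl and Ctsw rose and 4 fell (3.6% and 3.74% over all genes), led by Serpinb6b (-0.52 ± 0.07). Of 25 proliferation genes 7 fell and 1 rose (3.74% and 3.6% over all genes), led by the mitotic genes Ube2c (-0.92 ± 0.13) and Birc5 (-0.52 ± 0.10). In day 50 spinal cord Ube2c and Birc5 had 1 and 4 UMIs in CD69-high and 34 and 20 in CD69-low cells. There 1 cell held 91.4% and 62.5% of them. With raw antibody counts in the rule the values were 0.06 for Ube2c and 0.35 for Birc5. Glycolysis genes rose in 3 of 16 (3.6% over all genes), led by Pgam1 (0.22 ± 0.05). Respiratory chain genes fell in 4 of 22 (3.74% over all genes), led by Ndufa4 (-0.19 ± 0.04). The respiratory chain medians by library were -0.01, 0.01 and 0.003, and 2 fell with depth bins and 0 under the ranking by antibody share. Of 10 glucocorticoid and stress genes 4 rose (3.6% over all genes), led in p by Il1r2 (0.40 ± 0.08).

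**Figure D4:**
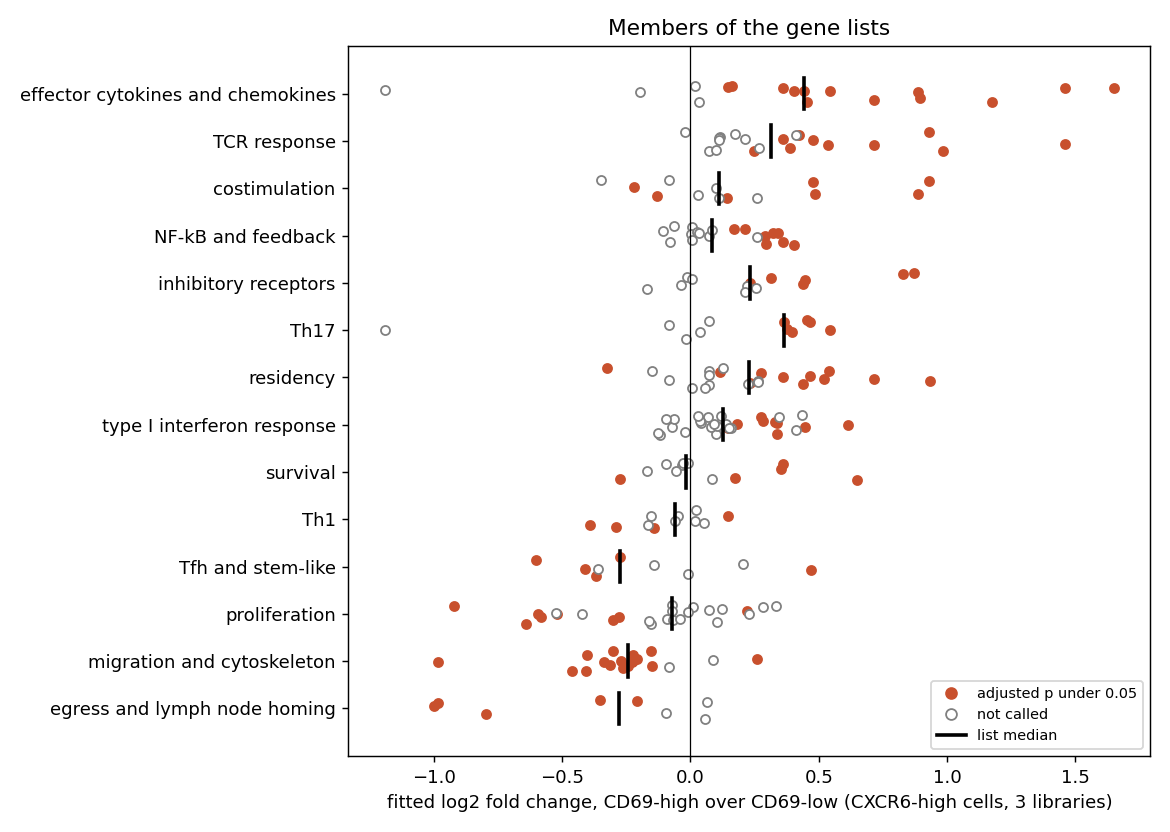
Fitted log2 fold change of CD69-high over CD69-low cells (x axis) for every tested member of 14 gene lists (rows); filled points passed an adjusted p of 0.05, open points did not, and vertical bars are list medians. The medians run from 0.44 for effector cytokines and chemokines to -0.28 for egress and lymph node homing.

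Whether the CD69 difference depended on CXCR6 was asked in the CXCR6-low cells of the same libraries. They were split in the same way, which gave 10603 other cells. The CD69 median was taken anew among them, so the groups held other CD69 levels than those above. The median cell had 6 CD69 antibody UMIs in CD69-high and 2 in CD69-low cells of day 14 brain. It had 18 and 5 in day 14 spinal cord, and 8 and 1 in day 50 spinal cord. Median RNA UMIs were 3457 and 4261, 5204 and 5142.5, and 3443 and 3252 in that order. The effect of these differences on the comparison was not tested. In CXCR6-low cells 271 of 8253 genes were higher (3.28%) and 202 lower (2.45%) in CD69-high cells. The test of the interaction, which asks whether the CD69 difference in CXCR6-high cells differs from that in CXCR6-low cells, called 0 of 8255 genes (0%) with edgeR and 0 with DESeq2; 413 genes (5%) had an unadjusted p under 0.05. Other settings called a few genes in this test, 16 higher and 12 lower with no filter on low counts, 1 and 4 with raw antibody counts and 1 and 2 with depth bins. With the rule as stated, the difference was not shown to be particular to CXCR6-high cells for any gene. S1pr1 had a log2 fold change of -0.998 ± 0.072 in CXCR6-high and -1.07 ± 0.24 in CXCR6-low cells (interaction 0.01, unadjusted p = 0.97). Klf2 had -0.98 ± 0.07 in CXCR6-high and -0.92 ± 0.26 in CXCR6-low cells, and Rgs16 had 0.93 ± 0.06 in CXCR6-high and 1.11 ± 0.11 in CXCR6-low cells. These fits pool libraries that differed. In CXCR6-low cells the log2 ratios of S1pr1 were -0.57 in day 14 brain, -0.92 in day 14 and -3.25 in day 50 spinal cord. Those of Klf2 were -0.21, -1.04 and -3.01 in the same order, against -0.68, -1.32 and -1.30 in CXCR6-high cells.

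The genes with the smallest interaction p included Xcl1, the ligand of XCR1 on dendritic cells. In CXCR6-high cells it was at 19.4, 18.0 and 312 CPM in CD69-high and 21.9, 2.33 and 179 CPM in CD69-low cells, and in CXCR6-low cells at 171, 244 and 409 CPM in CD69-high and 36.2, 72.6 and 85.2 CPM in CD69-low cells. The log2 fold change was 0.72 ± 0.18 in CXCR6-high and 2.03 ± 0.10 in CXCR6-low cells (interaction -1.28, unadjusted p = 0.00081, adjusted p = 0.71). Isg15 was higher in CD69-high cells among CXCR6-high cells and at -0.04 ± 0.08 among CXCR6-low cells (interaction 0.32, adjusted p = 0.74). The type I interferon list had 9 genes higher in CXCR6-high and 0 called in CXCR6-low cells (3.6% and 3.28% higher over all genes). Its medians were 0.13 and -0.05, and no member passed the interaction test. The proliferation list had 7 genes lower in CXCR6-high and 15 in CXCR6-low cells (3.74% and 2.45% lower over all genes). Its medians were -0.07 and -0.54, and again no member passed the interaction test. CD69 and CXCR6 protein went together to a degree, since 58.7%, 58.2% and 62.8% of CXCR6-high cells were above the CD69 median of their whole library, against 41.3%, 41.8% and 37.2% of CXCR6-low cells.

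**Figure D5:**
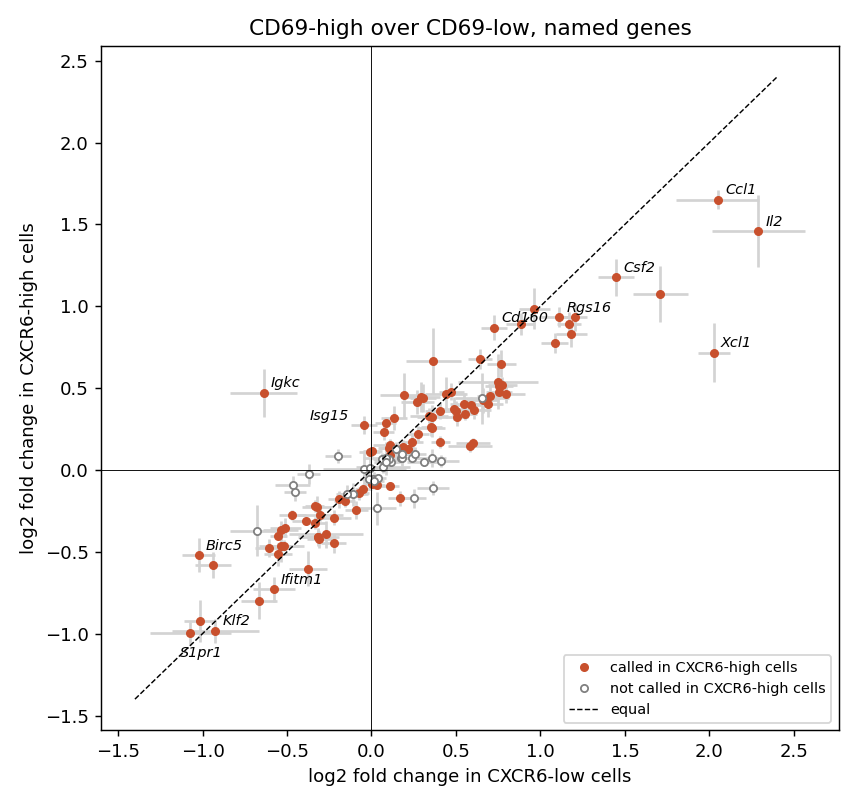
Fitted log2 fold change of CD69-high over CD69-low cells in CXCR6-high cells (y axis) against the same in CXCR6-low cells of the same 3 libraries (x axis), for the named genes; grey bars are 1 SE and the dashed line marks equal values. In these fits over 3 libraries together, S1pr1 and Klf2 lie near the line and Xcl1 at 0.72 and 2.03 lies to its right. The interaction test called 0 genes.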

How the data were processed

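The authors deposited unnormalized UMI counts of genes and 3 antibodies by cell barcode, 1 matrix per library, per the file headers. Per the submitters' processing notes, Cell Ranger 6.1.1 and the mm10 genome build were used, and barcodes had been called as cells. The annotation release is not given in the sources used here. Antibody features were taken by identifier (CD69, P2X7R, CXCR6); their names read CD69, CD3 and CD16.

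Cell members and gene lists were chosen with earlier results of these data known. Counts were summed per library and CD69 group and tested with edgeR 4.0.16 (R 4.3.3; TMM, glmQLFit and glmQLFTest, library as block), with adjustment by Benjamini-Hochberg over all genes at a mean of 5 CPM or more in the 6 sums. Called means an adjusted p under 0.05; errors after ± are SE of the log2 fold change unless given as SD. The interaction was fitted on 12 sums. Ratios within a library carry exact conditional binomial 95% intervals, which cover counting error only. No doublet caller was run; barcodes above the 95th percentile of UMIs were left out in an alternative, and barcodes were thinned to 2000 UMIs in another. The pairing of CD69-high with CD69-low sums comes from the shared library. DESeq2 1.42.0 was an alternative. The script for the test was checked on simulated data.

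Named genes are the 10 with the largest and the 10 with the smallest fitted change among called genes of 1 sign in all 3 libraries with a mean of 50 CPM, the 4 members of smallest p in each of 35 lists, 19 focal genes and the 5 genes of each sign with the smallest interaction p. Brain at day 50, with 87 cells in each group, is outside the rule and was added in an alternative. The text prints some of the named genes, and 1 of them is left out as not reported here; all stay in the counts. Sequences and coordinates are from RefSeq GRCm38.p6.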

Additional observations from a re-analysis of the deposited data

Results flagged for a closer look

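In 6 named genes the libraries went opposite ways, with the counting intervals of both directions excluding 0. Whether these differences between libraries exceed the spread between animals was not tested, since each tissue and day is 1 library. The log2 ratio of CD69-high over CD69-low CPM is given for each library that stood apart from 0.

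Il17a stood at 0.61 in brain and 0.84 in spinal cord on day 14, but at -2.18 in day 50 spinal cord. Csf2 did the same, at 1.13 and 1.47 at day 14 and -1.29 at day 50. Capg was at 0.39 and 0.32 at day 14 and -0.34 at day 50. Ly6c2, a surface marker of some Th1 effector cells, was at 0.62 in spinal cord at day 50, against -0.29 in brain and -0.75 in spinal cord at day 14. Ccl5 was at 0.19 in day 14 brain and 0.14 in day 50 spinal cord, against -0.18 in day 14 spinal cord. Snhg1, a small nucleolar RNA host gene, was at 0.30 in spinal cord at day 50 and -0.15 in brain at day 14.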

How the results depend on the processing

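The main fit keeps the library as a block; with no replicate block, that is without the pairing of CD69-high with CD69-low sums, edgeR called 0 genes higher and 0 lower (25 and 21 at an unadjusted p under 0.05), so every call rests on comparing cells of the same library. Leaving out 1 library gave 77 to 412 genes higher and 76 to 503 lower, and 0 to 3 higher and 0 to 1 lower in the interaction. DESeq2 called 42 and 52 genes, thinned cells gave 114 and 132, raw antibody counts 502 and 455, and the ranking by CD69 share of the 3 antibodies 230 and 196. The interaction gave 16 and 12 calls with no filter on low counts, 1 and 2 with medians within depth bins, 0 and 1 with thinned cells, 1 and 4 with raw antibody counts and 1 and 1 without cycling barcodes. The P2X7 log2 ratio was 1.18 in spinal cord at day 14 alone and 0.079 with the CD69 share.

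Of 97 named genes that were called, 38 stayed called in the same direction with DESeq2, 87 of 96 with depth bins, 68 with thinned cells and 75 with the CD69 share. Il17a turned to -0.20 with DESeq2, and ranged from -0.051 to 0.67 with 1 library left out (-0.020 without day 14 brain, -0.051 without day 14 spinal cord). Raw antibody counts gave 0.35 for Birc5, 0.52 for Hist1h1b, 0.063 for Ube2c, -0.054 for Btg1, -0.51 for Ccl5, -0.015 for Fos, -0.081 for Gm42418, -0.29 for Igkc and -0.044 for Rgs1. Gm42418 was -0.0081 with depth bins, Hist1h1b 0.040 without the richest barcodes, and Fos -0.0059 and Rgs1 -0.019 with the CD69 share. The cause of these changes was not tested. The alternative without the 2 richest cells per gene was chosen after seeing the data and gave 268 and 289 calls.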

Other observations

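Brain at day 50 was outside the rule, with 174 CXCR6-high cells and a median of 8 CD69 antibody UMIs in its CD69-high and 0 in its CD69-low cells. S1pr1 had 6 UMIs in CD69-high and 21 in CD69-low cells there, a log2 ratio of -1.85 (95% counting interval -3.45 to -0.49). Klf2 had 41 and 101 UMIs, a log2 ratio of -1.35 (-1.91 to -0.81). Il17a had 373 UMIs in CD69-high and 58 in CD69-low cells, a log2 ratio of 2.64, the other way from spinal cord at day 50. Ccl1 had 269 UMIs in CD69-high cells and 1 in CD69-low cells, with 56.7% of them in 1 cell.

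Some genes outside the rule for named genes, picked after their values were seen, moved by as much as those above. Rasgrp2, an exchange factor for the small GTPase Rap1, had a log2 fold change of -0.83 ± 0.08, with log2 ratios of -0.59 in day 14 brain, -1.01 in day 14 and -1.08 in day 50 spinal cord. Rasa3, a GTPase-activating protein that turns Rap1 off, had -0.66 ± 0.08. Ecm1, which encodes an extracellular matrix protein, had 1.05 ± 0.09, higher in all 3 libraries, and Igfbp7 had 0.73 ± 0.07. Tff1, a trefoil factor gene, had 1.08 ± 0.08, with log2 ratios of 1.09 and 1.16 in the day 14 libraries and -2.74 in day 50 spinal cord.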
